A study of Mus musculus with 24 samples.

Results

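Afp, Gpc3, Igf2bp3 and Cd24a are 4 genes of the 17893 gene symbols on the array that are grouped here as oncofetal liver genes. Their probes were found by gene symbol alone, and the genes themselves were chosen with earlier results of these data known. Afp and Cd24a each had 1 probe, and Gpc3 and Igf2bp3 each had 2. Of the 4 genes, Afp, Gpc3 and Igf2bp3 exceeded background on 4 or more of the 24 arrays, which was required for a test, and were 3 of the 10728 genes tested. Cd24a did not.

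Oncofetal genes are transcribed in the fetal liver, are shut down as hepatocytes mature around and after birth, and can be transcribed again in liver tumours or regenerating liver. Alpha-fetoprotein, the product of Afp, is the main plasma protein of the fetus and a blood marker of hepatocellular carcinoma, and glypican-3, the product of Gpc3, is a heparan sulfate proteoglycan on the cell surface that is used as a tissue marker of the same tumour. Igf2bp3 encodes a fetal RNA-binding protein that binds Igf2 and other growth-related messages, and Cd24a encodes a small glycosylated membrane protein of progenitor and immune cells.

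Total RNA from mouse liver was hybridised to an Illumina mouse expression array. There were 6 groups of 4 arrays each, labelled control or DNMT1 knockout at weeks 4, 8 and 20. DNMT1 is the enzyme that copies DNA methylation onto newly replicated DNA. How the deletion was made, in which cells, and on which strain are not given in the sources used here, nor is it stated that each array stands for another animal. The p-values therefore refer to the variation among arrays, which may be technical. Of 10 hepatocyte markers, 10 passed the filter. In the knockout 0 were higher and 2 lower at week 4, where 14.8% and 12.4% of all genes tested were. At week 8, 0 were higher and 3 lower, namely Alb (-2.94), Fgb (-2.58) and Tat (-1.52), where 24.9% and 24.0% of all genes tested were. The summed intensity of the 10 markers, 159407 to 208258 over all arrays, is set by the brightest probes and says little about the dimmer ones. Of the brightest, Ttr, Apoa1, Apoc3, Serpina1c and Trf had group means of 14.61 to 15.15 on the log2 scale. Control week 20 replicates 3 and 4 stood apart in the acute-phase genes Lcn2 (28951 and 30736 against 87.0 and 124 in replicates 1 and 2) and Saa1 (6266 and 5870 against 42.2 and 44.3). Without the one or the other, the genes called between knockout and control at week 20 numbered 284 and 302 in place of 608. Leaving out knockout week 20 replicate 2 or 3 also lowered that number, to 333 and 370. With any 1 of the 24 arrays left out it ranged from 284 to 720. The comparisons below ask how these genes changed between ages in control livers, and how they differed in the knockout at each age.

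Values are background-subtracted intensities on a linear scale, where an intensity of 16.4 or less is treated as background and small negative numbers are noise. Differences are on the log2(intensity + 16) scale, which understates the change of dim probes, and are given as difference ± SE from limma with 4 arrays a group. Adjusted p-values are limma's, corrected over all 10728 genes, and an adjusted p under 0.05 is called a change. A fold written as "at least" is the brighter group over the background threshold, and is given only if every array of the dimmer group was at background.

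The targeted gene, Dnmt1, was measured by a probe whose position relative to the deleted part is not known here. Its mean intensity was 95.0 ± 25.8 (SD, n = 4), 98.9 ± 7.18 and 84.6 ± 13.5 in control livers at weeks 4, 8 and 20, and 77.7 ± 23.4, 77.2 ± 7.15 and 52.1 ± 15.3 in knockout livers. Knockout minus control was -0.25, -0.30 and -0.58 on the log2 scale (limma adjusted p = 0.364, 0.2003 and 0.0736), so the probe was lower on average in the knockout at each week without passing the test. In bulk RNA, fewer cells of a type and less RNA per cell cannot be told apart, for this gene or for those that follow.

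The 300-base windows around the annotated starts are shown for 3 of the 4 genes, and no window was available for Cd24a. They are shown because the CG dinucleotide, printed in capitals, is the unit that DNMT1 methylates. Each window runs 5′ to 3′ along the gene's own strand from 250 bases before the RefSeq start (assembly GRCm38.p6). The Afp window is chr5:90490464-90490763 on the plus strand, that of Gpc3 is chrX:52613925-52614224 on the minus strand, and that of Igf2bp3 is chr6:49214905-49215204 on the minus strand.
Afp: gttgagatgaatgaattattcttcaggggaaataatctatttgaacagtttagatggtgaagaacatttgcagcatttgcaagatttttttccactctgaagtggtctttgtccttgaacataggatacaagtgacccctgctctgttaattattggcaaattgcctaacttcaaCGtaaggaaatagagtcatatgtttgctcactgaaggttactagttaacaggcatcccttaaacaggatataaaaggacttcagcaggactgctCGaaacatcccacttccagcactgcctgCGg
Gpc3: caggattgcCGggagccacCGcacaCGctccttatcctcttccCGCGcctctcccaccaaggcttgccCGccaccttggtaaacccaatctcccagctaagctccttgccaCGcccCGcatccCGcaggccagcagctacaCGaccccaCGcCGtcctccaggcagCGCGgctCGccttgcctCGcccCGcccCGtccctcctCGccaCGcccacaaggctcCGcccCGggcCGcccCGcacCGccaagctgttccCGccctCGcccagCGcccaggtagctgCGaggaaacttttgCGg
Igf2bp3: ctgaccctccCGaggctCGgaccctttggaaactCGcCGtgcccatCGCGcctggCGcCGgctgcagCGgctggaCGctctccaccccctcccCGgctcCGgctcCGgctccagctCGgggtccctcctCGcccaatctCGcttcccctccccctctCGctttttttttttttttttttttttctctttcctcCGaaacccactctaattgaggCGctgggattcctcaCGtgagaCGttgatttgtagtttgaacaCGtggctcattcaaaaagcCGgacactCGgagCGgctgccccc

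The windows fall into different classes of base composition. Afp holds 3 CG dinucleotides, and 23.3% of the 32851 mouse windows of the same length hold fewer. Gpc3 holds 30 and Igf2bp3 holds 25, more than 88.3% and 81.6% of windows, against a median of 7.

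Short motifs were searched on both strands, with positions counted from 1 at the 5′ end of the window. The Afp window alone among the 3 holds TATAAA (the core of a TATA box), at position 244, a sequence found in 13.6% of windows. It also holds GTTAAT, which is one side of the palindromic site of the hepatocyte factor HNF1, at position 146, against 7.10% of windows, and TGTTTGC, a form of the site of the FOXA factors, at position 196, against 5.07%. CCAAT, the CCAAT box, is in all 3 windows, at position 153 in Afp (reverse strand), 85 in Gpc3 and 133 in Igf2bp3, and in 37.4% of windows overall. TGTTTAC, another form of the FOXA site, was in none of the 3 and in 3.65% of windows. The matches do not overlap, and a match describes these letters only. Methylation data are not analysed here.

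Afp was at background in every control group and was clearly measured only in the week 8 knockout. Control livers read 6.80, 8.81, 0.647 and 1.33 at week 4, between -8.19 and 0.172 at week 8, and -6.76, -0.928, 21.5 and -5.25 at week 20, so 1 of 12 control arrays exceeded the background threshold. Knockout livers read 34.2, 17.1, -6.99 and 18.5 at week 4, then 287, 172, 142 and 99.6 at week 8. At week 20 the knockout was back between -3.42 and 2.41. The week 8 knockout arrays therefore all lay above every other array of the study, and at week 4 the groups overlapped, with 3 of 4 knockout arrays just above background.

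At week 8 Afp was 3.49 ± 0.31 higher in the knockout (limma adjusted p = 1.9e-09), which is at least 9.94-fold. The size depends on the treatment of values near 0, being 2.11 with an offset of 50 and 7.35 after flooring at 1 and renormalizing, and the call held under both. At week 4 the difference was 0.62 ± 0.31 (adjusted p = 0.147). That call rests on 1 array: without knockout replicate 4, the array at -6.99, the difference was 0.94 with an adjusted p of 0.0218. At week 20 the difference was -0.26 ± 0.31 (adjusted p = 0.686), and the control array at 21.5, replicate 3, was the 1 array of the 8 above background. Without it the week 20 difference was 0.0507.

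Gpc3 was measured in both genotypes at week 4, fell to background in controls by week 8, and reached its highest level in the week 8 knockout. Control livers at week 4 read 64.6, 69.4, 489 and 108, and knockout livers read 136, 96.4, 78.2 and 137. Replicate 4 of the controls stood apart. Of the other 3 control arrays, 1 lay inside the knockout range and 2 lay below it. At week 8 the controls read 16.2, 7.36, 14.9 and 12.1, and the knockouts read 1177, 959, 1355 and 723. The lowest knockout array was thus far above the highest control array. At week 20 both genotypes were near background. Control arrays read -5.62, 25.9, 11.1 and 16.9, and knockout arrays read 21.2, 15.8, 5.03 and 11.1.

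At week 8 Gpc3 was 5.20 ± 0.39 higher in the knockout (limma adjusted p = 9.3e-11), at least 62.6-fold. At week 4 the difference was -0.20 ± 0.39 (adjusted p = 0.750), and without control replicate 4 it turned to 0.40 (adjusted p = 0.321). At week 20 it was 0.04 ± 0.39 (adjusted p = 0.968). The other Gpc3 probe read 764, 740, 773 and 531 in the week 8 knockouts and at most 7.71 in the week 8 controls, at least 42.4-fold apart, and the probes had a Pearson correlation of 0.970 over the 24 arrays.

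Igf2bp3 was well above background in week 4 livers of either genotype and was at background in controls at weeks 8 and 20. Control livers read 486, 668, 636 and 539 at week 4, between 1.93 and 8.18 at week 8, and between -11.9 and 0.552 at week 20. Knockout livers read 663, 701, 783 and 698 at week 4, then 524, 345, 345 and 342 at week 8, and between -9.34 and 11.3 at week 20. At week 4 the groups overlapped by a narrow margin, 668 being the highest control and 663 the lowest knockout. At week 8 every knockout array was above every control array.

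At week 8 Igf2bp3 was 4.28 ± 0.18 higher in the knockout (limma adjusted p = 1.8e-15), at least 23.3-fold. The difference was 2.99 with an offset of 50 and 6.61 after flooring at 1 and renormalizing, with the same call. The week 4 difference was 0.29 ± 0.18 (adjusted p = 0.235). The week 20 difference was 0.28 ± 0.18 (adjusted p = 0.369). The other probe was dimmer, with 202 to 285 in week 4 controls, 253 to 384 in week 4 knockouts and 129 to 194 in week 8 knockouts, and was at least 9.58-fold higher in the week 8 knockout than in the control. Over the 24 arrays its correlation with the brighter probe was 0.994.

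Cd24a gave no signal on any array. Its probe read between -14.9 and 0.855 in all 24 samples, with 0 of 24 above background, and its place among the 25697 probes of an array was between the 0.66th and the 29.7th percentile. No change of Cd24a can be read from this probe in any comparison, and a low probe reading does not show that the transcript was absent.

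**Figure D1:**
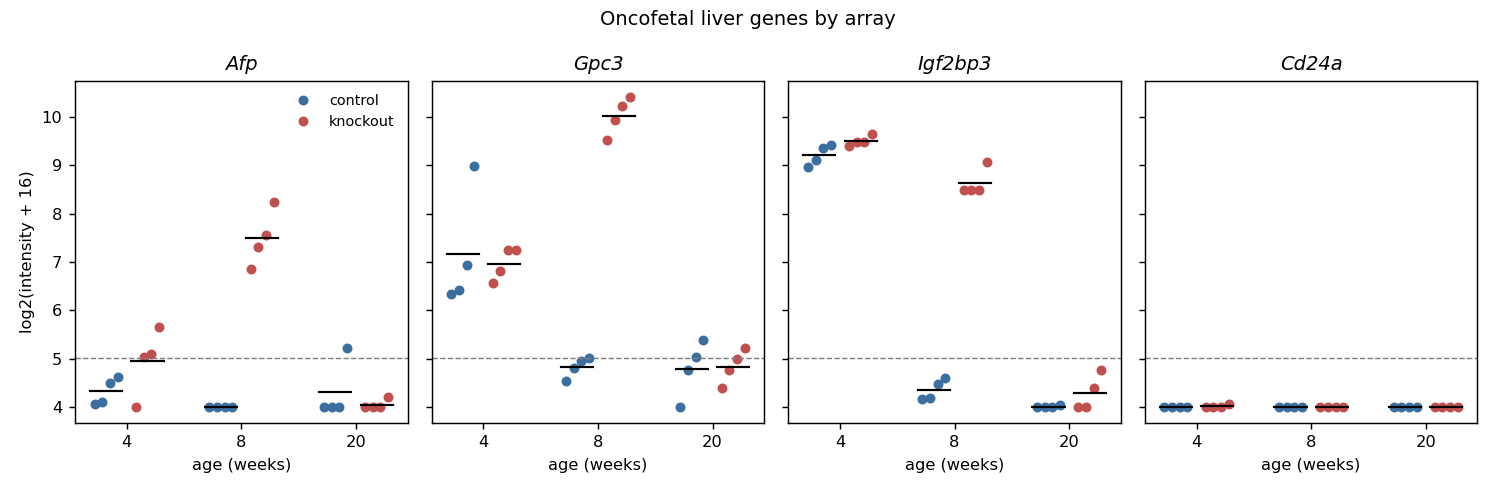
Values of Afp, Gpc3, Igf2bp3 and Cd24a in each array on the log2(intensity + 16) scale against age in weeks, with 1 point an array, black bars at the mean of 4 arrays and a dashed line at the background threshold. The week 8 knockout points (red) of Afp, Gpc3 and Igf2bp3 lie above all week 8 control points (blue), which are at or below the dashed line, and Cd24a lies below the line throughout.

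In the knockout-control comparison at week 8, all 3 tested members were higher, where 24.9% of all genes tested were called higher and 24.0% lower. Knockout and control arrays did not overlap for any of the 3, and the share of all genes without overlap was not counted. An exact permutation test of each gene gave p = 0.0286, the smallest that 70 arrangements of 4 against 4 arrays allow (0.0462 after adjustment over 21 such tests). Groups without overlap always give this p, so it restates the lack of overlap. At week 4, 0 of the 3 passed, where 27.2% of genes did, and at week 20, 0 passed, where 5.67% of genes did. Afp passed the filter on dim probes mainly through the knockout groups in which it was high, so the count of 3 is a description of these genes.

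The difference itself changed with age. From week 4 to week 8 the knockout-control difference grew by 2.86 ± 0.44 for Afp, 5.40 ± 0.55 for Gpc3 and 3.99 ± 0.25 for Igf2bp3 (limma adjusted p = 1.3e-04, 3.4e-07 and 8.0e-11). Over all genes 5.57% grew and 3.36% shrank by this test. From week 8 to week 20 it changed by -3.74 ± 0.44, -5.15 ± 0.55 and -4.00 ± 0.25 (adjusted p = 1.0e-06, 2.5e-07 and 4.3e-11), where 16.9% of genes changed downward. These contrasts share the week 8 arrays.

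**Figure D2:**
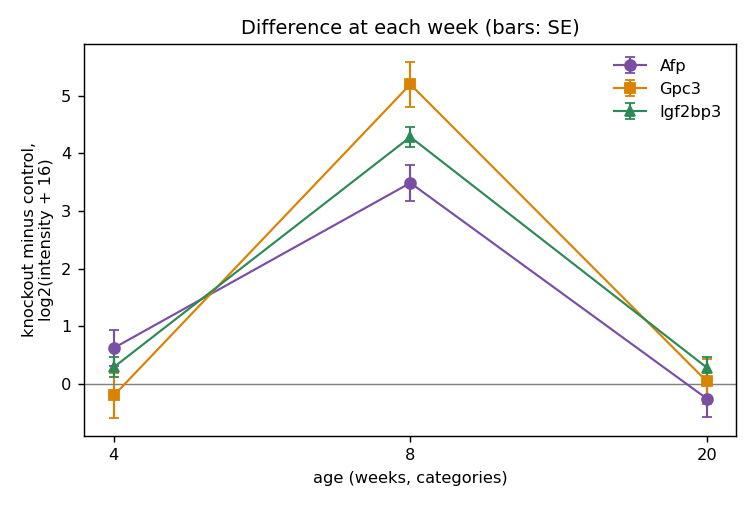
Differences between knockout and control, on the log2(intensity + 16) scale, of the 3 tested genes at weeks 4, 8 and 20, drawn at equal spacing, with bars of 1 SE from limma. The differences lie between -0.20 and 0.62 at week 4, between 3.49 and 5.20 at week 8, and between -0.26 and 0.28 at week 20.

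The route to the week 8 difference was not the same for the 3 genes. In controls between weeks 4 and 8, Igf2bp3 fell by 4.86 ± 0.18 on the log2 scale (limma adjusted p = 4.9e-16), at least 35.3-fold, and Gpc3 fell by 2.34 ± 0.39 (adjusted p = 2.7e-04), at least 7.57-fold. Over all genes 4.79% fell between these ages. Without control week 4 replicate 4 the Gpc3 difference was -1.74 (adjusted p = 2.9e-04), at least 4.79-fold. Afp was below background on all 8 of these control arrays, with a difference of -0.33 ± 0.31 (adjusted p = 0.618), so no fall of Afp was measurable between these ages.

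In the knockout over the same interval, Afp and Gpc3 rose while Igf2bp3 fell. Afp rose by 2.54 ± 0.31 (adjusted p = 1.6e-05) and Gpc3 by 3.06 ± 0.39 (adjusted p = 2.4e-05), where 4.98% of genes rose. The mean Gpc3 intensity at week 8 was 942% of that at week 4 in the knockout, and 6.93% in controls, or 15.7% without control week 4 replicate 4. Igf2bp3 fell by 0.87 ± 0.18 (adjusted p = 0.0022), where 4.02% of genes fell. Its mean at week 8 was 54.7% of that at week 4, and 53.3% by the other probe, while the control mean dropped to 0.80%. Its week 8 difference therefore lay between a smaller fall and a near-complete one, and that of Gpc3 between a rise and a fall.

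Between weeks 8 and 20 all 3 fell in the knockout, by 3.44 ± 0.31 for Afp, 5.19 ± 0.39 for Gpc3 and 4.34 ± 0.18 for Igf2bp3 (limma adjusted p = 4.2e-09, 2.1e-10 and 5.3e-15), where 22.2% of genes fell. In controls over this interval the differences were 0.30, -0.03 and -0.34 (adjusted p = 0.867, 0.993 and 0.594), and 0.0280% of genes, 3 in all, were called in either direction. Nearly all of those control values were at background, where their order carries no information.

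Ranked by mean level, the groups gave a different order for each gene. For Afp the week 8 knockout was first and did not overlap the next group, the week 4 knockout, and all later neighbours overlapped. For Gpc3 the week 8 knockout stood clear of the week 4 controls, these overlapped the week 4 knockouts, and the week 4 knockouts stood clear of the 3 groups near background. For Igf2bp3 the order was week 4 knockout, week 4 control and week 8 knockout, each overlapping the next, followed by a gap to the 3 groups at background.

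Within the week 8 knockout, the array with the highest level differed between the genes. Replicate 1 was highest for Afp (287) and Igf2bp3 (524), and replicate 3 was highest for Gpc3 (1355). Replicate 4 was lowest for Afp (99.6) and Gpc3 (723), and for Igf2bp3 by a narrow margin (342 against 345 in replicates 2 and 3). That array also stood apart in Eif2s3y, a Y-linked gene, at -10.8 against 544 to 600 on the other 3, and in Igf2, at 24711 against 2232 to 5716. Without it, the week 8 differences of Afp, Gpc3 and Igf2bp3 were 3.70, 5.36 and 4.33.

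Across all 24 arrays, as a description in which arrays of a group share genotype and age, the Pearson correlation of log2 values was 0.837 between Afp and Gpc3, 0.769 between Gpc3 and Igf2bp3, and 0.50 between Afp and Igf2bp3. The 5 genes whose pattern was most like Afp were Tspan17, Slc7a11, Svep1, Spire2 and Slc1a1 (r = 0.956 to 0.938). Those most like Gpc3 were P2ry14, Slc1a4, Wipf1, Acss1 and Klhl6 (r = 0.923 to 0.912), and those most like Igf2bp3 were Sparc, Bex4, Akr1c18, Nt5e and Col4a1 (r = 0.973 to 0.958). Of the 10727 other genes, 24, 18 and 41 reached r of 0.9 with Afp, Gpc3 and Igf2bp3.

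Other fetal and oncofetal liver genes, from a list of 24 of which 14 could be tested, were examined beside the members. At week 8, 11 were higher and 0 lower in the knockout, with a median difference of 2.17 against -0.07 over all genes, of which 24.9% were higher and 24.0% lower. At week 4, 7 were higher and 1 lower (median 0.86), where 14.8% and 12.4% of all genes were. At week 20, 2 were higher and 1 lower (median 0.44), where 3.44% and 2.23% of all genes were. In controls from week 4 to 8, 0 rose and 8 fell (median -1.02), where 3.17% and 4.79% of all genes did. Of these 8, Hmga1, Mdk and Mest did not pass by their other probes, at 0.16 for Hmga1, 0.008 for Mdk, and -0.73 and -1.07 for Mest. The genes were chosen with earlier results of these data known, so the counts are not independent of them. Not tested, because they were at background, were Igf2bp1, Lin28a, Hmga2, Sall4, Peg3, Peg10 and Plagl1. Lin28b, Epcam and Trim71 were not analysed here.

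H19, an imprinted non-coding RNA of fetal liver, read 185, 148, 814 and 108 in week 4 controls, at most 1.77 in week 8 controls, and 7282, 10920, 8081 and 17682 in week 8 knockouts. It was at least 631-fold higher in the knockout at week 8 (9.28 ± 0.39, limma adjusted p = 2.7e-15). Week 4 knockouts already read 3449, 2681, 2136 and 2457, a difference of 3.46 ± 0.39 (limma adjusted p = 3.5e-07). Control week 4 replicate 4, which stood apart for Gpc3, was also the highest of its group for H19.

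Igf2, the fetal growth factor whose message Igf2bp3 binds, read 29.3, 47.0, 103 and 69.9 in week 4 controls and 344, 152, 218 and 184 in week 4 knockouts. At week 8 it read 38.1, 4.61, 25.8 and 11.2 in controls and 4345, 5716, 2232 and 24711 in knockouts. The week 4 difference was 1.65 ± 0.46 (adjusted p = 0.0087), and that of week 8 was 7.51 ± 0.46 (adjusted p = 2.5e-12). Igf2 thus passed the test at both ages.

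Spink1, a secreted trypsin inhibitor that also marks some liver cancers, and Golm1, a Golgi membrane protein used as a serum marker of liver disease, were higher in the knockout at week 4 (2.15 and 2.71) and week 8 (6.03 and 3.95). Golm1 was still higher at week 20, by 1.13 ± 0.20 (adjusted p = 0.00146). Spp1, which encodes the matrix protein osteopontin, and Igdcc4, a fetal surface receptor-like protein, were higher at week 4 (1.95 and 1.52) and at week 8 (2.76 and 2.44). Dlk1, a surface protein of hepatoblasts, was at background in all 12 control arrays and read 43.1, 63.0, 38.9 and 42.8 in the week 8 knockouts, at least 2.82-fold higher (adjusted p = 0.00139). It was above background on 5 arrays, all of them knockout, so it passed the filter through the group in which it was high.

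Lpl, which encodes the lipoprotein lipase made by newborn liver, and Igf2bp2, a sister of Igf2bp3, fell in controls from week 4 to 8, with differences of -2.12 and -1.61, and were higher in the week 8 knockout by 2.46 and 1.57. Igf2bp2 was lower in the week 20 knockout, at -1.16 (adjusted p = 0.0329), but the count of list genes lower at week 20 was 0 in 9 of 32 alternatives. These include leaving out control week 20 replicate 1, 3 or 4 or knockout week 20 replicate 1 or 2. Mdk, a heparin-binding growth factor, was higher at week 8 by 1.73 and at week 20 by 0.77, and another Mdk probe gave 0.61 at week 8 (adjusted p = 0.0966) and -0.06 at week 20. For Hmga1, a chromatin protein, the probes disagreed, at 1.05 and -0.89 at week 8. Mest, an imprinted gene, was lower at week 4 by 1 probe (-1.18) and did not pass by its other probes (-0.30 and -0.09). Mest, Scd2 and Tff3 did not pass at week 8.

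**Figure D3:**
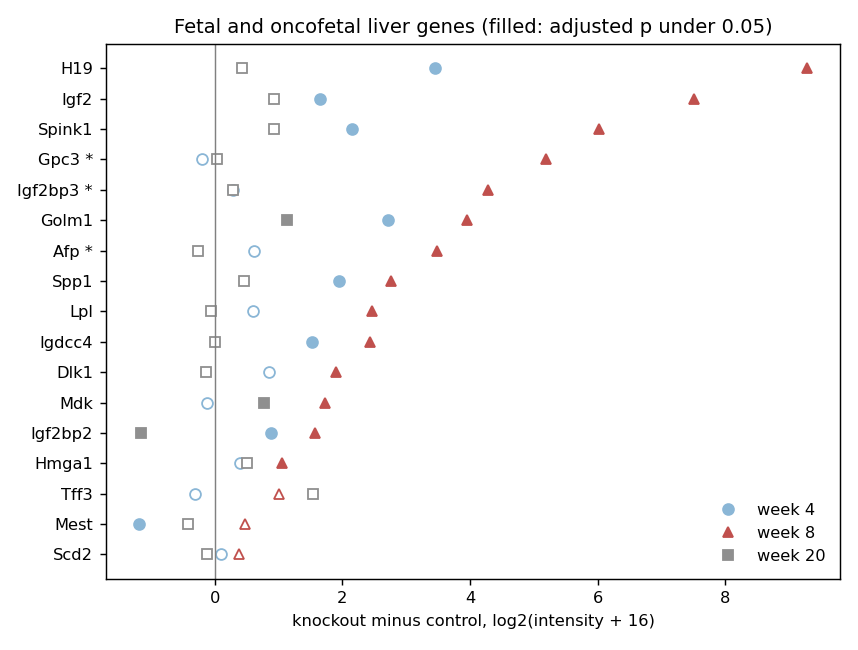
Differences between knockout and control, in log2(intensity + 16), of the 14 tested fetal and oncofetal liver genes and the 3 tested members (asterisks), at week 4 (circles), week 8 (triangles) and week 20 (squares), with filled symbols for a limma adjusted p under 0.05. The week 8 triangles are the rightmost symbols of all genes except Tff3, and Gpc3, Igf2bp3 and Afp are filled at week 8 alone.

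Known regulators of Afp were mostly lower in the week 8 knockout. Of 15 tested, 1 was higher and 9 lower (median -0.42), where 24.9% and 24.0% of all genes were. Zhx2, which in mouse liver represses Afp, H19 and Gpc3 after birth, read 121, 86.3, 98.0 and 77.4 in week 8 controls and 24.2, 50.5, 38.4 and 33.6 in week 8 knockouts, without overlap. Its difference was -1.09 ± 0.20 at week 8 (limma adjusted p = 7.6e-05). At week 4 it was -0.19 and at week 20 it was 0.62, with adjusted p of 0.532 and 0.0666. In controls Zhx2 rose by 0.77 from week 4 to 8 (adjusted p = 0.0164). The part of Zhx2, or of the regulators that follow, in the levels of Afp, H19 and Gpc3 was not tested.

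The related factors Zhx1 and Zhx3, and Zfhx3, a repressor of the human Afp counterpart, were lower at week 8 by smaller amounts (-0.50, -0.62 and -0.42). Another Zfhx3 probe gave -0.43 with an adjusted p of 0.0559. Zbtb20, the other known postnatal repressor of Afp in mouse liver, was 1.35 ± 0.35 higher in the week 4 knockout (adjusted p = 0.00524) and did not pass at week 8, at 0.12 ± 0.35 (adjusted p = 0.797). Among hepatocyte activators, Foxa1, Nr5a2 and Cebpa were lower at week 8 (-1.31, -1.37 and -1.28), and Hnf4a and Foxa3 were lower by less (-0.36 and -0.34). Trp53 was the 1 regulator called higher (0.83).

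At week 8 the neighbours of Afp in the albumin gene family differed in the opposite direction to it. Alb read between 925 and 997 in week 8 controls and between 92.8 and 145 in week 8 knockouts, a difference of -2.94 ± 0.16 (limma adjusted p = 3.3e-13). Afm, afamin, and Gc, the vitamin D-binding protein, were also lower, at -1.44 and -0.90. So 3 of 3 were lower where Afp was higher, and 24.0% of all genes were lower. Alb and Afm were also lower at week 4 (-0.93 and -0.90), and Alb and Gc at week 20 (-1.41 and -0.60), ages at which Afp did not pass. Gc at week 4 (0.07) and Afm at week 20 (-0.08) did not pass. Afp and Alb are different probes, and their levels are not compared.

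Of the 7 tested glypicans and partners of glypican-3, 3 were higher and 1 lower at week 8 (median 0.49), a count of so few genes that lies near the 24.9% and 24.0% of all genes. Gpc1, another glypican, was higher at weeks 4 and 8 (1.44 and 1.55), Gpc4 was lower at week 8 (-1.09), and Igf2r, a receptor that clears IGF2, was higher by 0.76. Of the 6 tested genes in the list of the IGF2BP family and its target messages, 6 were higher at week 8 and 6 at week 4, with medians of 2.73 and 1.33. Over all genes, 24.9% and 14.8% were higher at these ages. They include Igf2, H19 and Igf2bp2 of the list above, and Ccnd1, cyclin D1, which was higher by 3.89. For the targets Cd44 (1.29) and Actb (1.18), other probes gave -0.21 and as low as -2.55 at week 8. At week 4 the other Cd44 probe gave 0.13 (limma adjusted p = 0.775), and other Actb probes ranged from -1.45 to 0.70. The counts of 6 at these ages therefore depend on the probe used. Of the CD24 partners, 2 were tested, Selp and Hmgb1, and neither passed at week 8, where Cd24a itself was not measurable.

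Markers of several other cell types moved with the members at week 8. Over all genes tested, 24.9% were higher and 24.0% lower in the knockout at that week. Dividing-cell markers were higher for 7 of 8 tested (median 3.36), and their summed intensity was 134 to 180 in week 8 controls and 2017 to 4163 in week 8 knockouts. In controls 7 of these 8 markers fell from week 4 to 8, from sums of 510 to 1545, where 4.79% of all genes fell. Igf2bp3 and Gpc3 fell over the same interval. Of these 8 markers, 5 were already higher in the week 4 knockout and 0 lower, where 14.8% and 12.4% of all genes were. The week 4 knockout sum was 1635 to 3068, at an age when Afp, Gpc3 and Igf2bp3 did not pass the test. At week 20 the knockout sum was 275 to 344.

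Biliary and progenitor markers were higher for 6 of 9 and lower for 1, with sums of 981 to 1304 in week 8 controls and 4304 to 5279 in week 8 knockouts. At week 4 the same sum was already 3861 to 5517 in knockouts against 1184 to 2098 in controls, at an age when Afp, Gpc3 and Igf2bp3 did not pass the test. Krt19, Prom1 and Cftr of that list were at background and not tested.

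Macrophage (9 of 9), neutrophil (8 of 8), T and NK cell (5 of 7), B and plasma cell (3 of 4) and stellate and matrix markers (8 of 10) were also higher at week 8, with none lower. Some dim markers passed the filter mainly through the week 8 knockout, so the counts are a description. The neutrophil marker Mpo, for example, had log2 group means of 4.00 to 4.24 elsewhere and 5.87 in that group. Macrophage sums were 4006 to 5464 in controls and 9988 to 22398 in knockouts, neutrophil sums 32.6 to 133 and 921 to 2293, and stellate and matrix sums 5620 to 6288 and 16007 to 18992. T and NK cell sums were 60.4 to 109 in controls and 279 to 501 in knockouts, and B and plasma cell sums 54.8 to 76.0 and 204 to 315. Endothelial markers (3 higher and 2 lower of 10) and erythroid markers (3 higher and 2 lower of 8) moved both ways, with overlapping sums. Their counts, of few genes, lie near the 24.9% and 24.0% of all genes. At week 4, 8 of 9 macrophage markers were already higher in the knockout. Of 10 stellate and matrix markers 6 were higher and 1 lower at that age, and of 8 neutrophil markers 0 were called. Over all genes 14.8% were higher and 12.4% lower at week 4. The part of all these cell types in the levels of Afp, Gpc3 and Igf2bp3 was not tested.

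**Figure D4:**
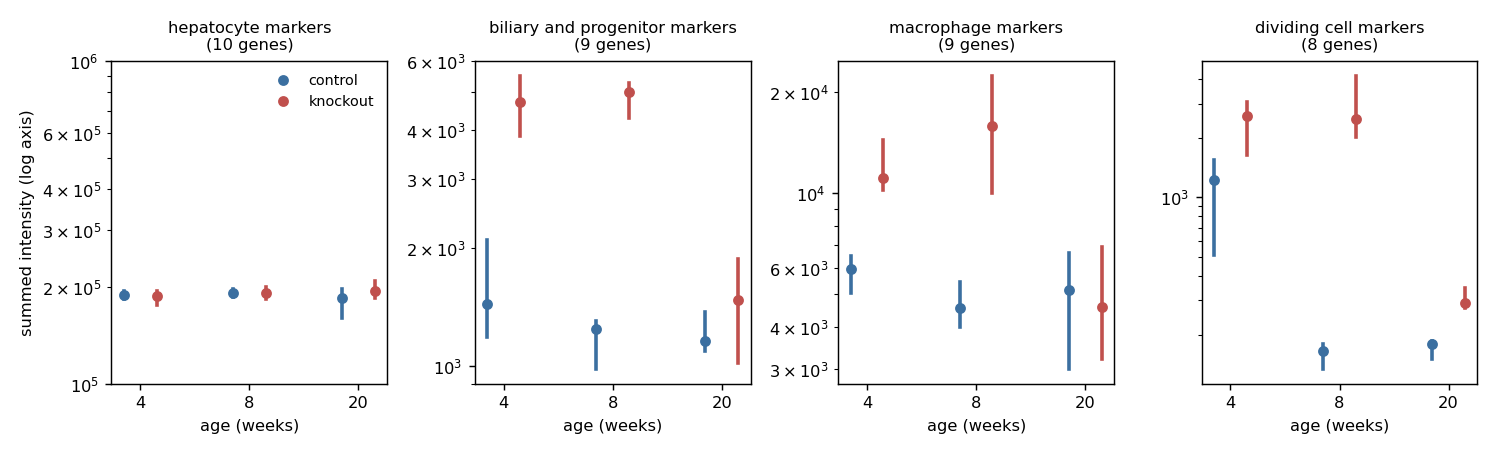
Summed intensity of hepatocyte, biliary and progenitor, macrophage and dividing-cell markers by age, on log axes that differ between panels, with points at the median and bars from the lowest to the highest of 4 arrays. The hepatocyte sum is set by a few very bright probes and overlaps between the genotypes at every week, and the other 3 sums are higher in every knockout array than in every control array at weeks 4 and 8.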

How the data were processed

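Per the labels' protocols, liver RNA was extracted with a column kit, amplified to biotinylated cRNA and hybridised to an Illumina array. The authors deposited intensity values that are background-subtracted and look quantile normalized (27.8% below 0, column medians 13.3 to 13.6); per the submitters' processing notes, GenomeStudio 2011 was used. Symbols came from the deposited non-normalized table, whose 48 per-sample columns match no label and were not used. Symbols were updated through RefSeq, GRCm38.p6.

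Values were set to at least 0 and log2(intensity + 16) was taken. From the deposited intensity values a noise SD of 7.03 was estimated as the root mean square of the negatives, and 2.33 times it, 16.4, was the background threshold. Between 12176 and 12262 of 25697 probes per array exceeded it. Probes exceeding it on at least 4 arrays (14528) were kept, and the brightest on average represented its gene. A 6-group model over 24 arrays was fitted with limma 3.58.1 (trend) in R 4.3.3, Benjamini-Hochberg adjusted, and tested on simulated data. Replicate numbers did not pair arrays: deviations of same-numbered arrays correlated between -0.146 and 0.041. Precision is limited by 4 arrays a group.

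Named genes were the members, listed genes and the 5 most correlated genes of each member. Members and lists were chosen with earlier results of these data known. The alternatives tried were other offsets, a floor, renormalization, no filter, array weights, no trend, a replicate block, fewer arrays and other probes.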

Additional observations from a re-analysis of the deposited data

Results flagged for a closer look

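Every probe of the 3 tested genes was searched in each group that held an array above background. On the log2 scale, 3 groups of 4 arrays had a highest or lowest array far from the rest by Dixon's test, which chance does in about 1 of 20 groups. Afp read 21.5 in control week 20 replicate 3, with the other 3 arrays at or below 0. Those 3 arrays were set to the same value, so any reading above 0 on the remaining array would have passed. The other probe of Gpc3 read 531 in knockout week 8 replicate 4, against 740 to 773 on the other 3 arrays. Igf2bp3 read 524 in knockout week 8 replicate 1, against 342 to 345. On the linear scale the Afp array did not pass and control week 4 replicate 4 of Gpc3 did, at 489 and, by the other probe, 285.

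The knockout-control difference changed with age by its own test for all 3 tested genes. Between weeks 4 and 8 the change was 2.86 for Afp, 5.40 for Gpc3 and 3.99 for Igf2bp3. Between weeks 8 and 20 it was -3.74, -5.15 and -4.00 in the same order, and the week 8 arrays stand in both contrasts.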

How the results depend on the processing

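Of 27 differences of the 3 tested genes, 17 passed the threshold, and 555 of their 556 alternatives gave the same call. Most of these alternatives left out 1 of the 24 arrays, often an array outside the groups compared. Such a run leaves the difference itself unchanged, so its call was nearly fixed in advance. Sizes moved more: the week 8 differences ranged from 2.11 to 7.35 for Afp, 4.11 to 6.39 for Gpc3 and 2.99 to 6.61 for Igf2bp3, so their order depends on the setting. The exception in call was the Igf2bp3 fall in the knockout from week 4 to 8, -0.89 with an adjusted p of 0.393 after flooring at 1 and renormalizing. With the replicate number as a random block the week 8 differences were 3.49, 5.20 and 4.29 for Afp, Gpc3 and Igf2bp3, and the calls of all 27 gene differences were the same. The 27 counts moved by at most 1.5 times, for example from 608 to 494 at week 20.

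Only differences that did not pass turned sign. With a floor of 16, Gpc3 was -0.0921 at week 20 and 0.19 in controls from week 8 to 20, and Afp in controls from week 4 to 8 and Igf2bp3 in both week 20 comparisons were 0. An offset of 50 gave 0.0044 and the other probe 0.0931 for Gpc3 in controls from week 8 to 20, and the other Igf2bp3 probe gave 0 at week 20. Leaving out 1 array gave 0.39 to 0.94 for Afp and -0.48 to 0.40 for Gpc3 at week 4, -0.36 to 0.0507 and -0.22 to 0.24 at week 20, and, in controls from week 8 to 20, -0.0039 to 0.41 and -0.23 to 0.23. The arrays behind the week 4 changes are named with those results.

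Over all genes, 608 passed in the week 20 comparison, 390 with no filter, 167 with only the compared arrays and 284 to 720 with 1 array left out. In controls from week 4 to 8 it was 854, with 1517 under array weights, 1426 with only the compared arrays and 568 to 936 with 1 array left out. In the knockout over that interval it was 965, and 583 to 1117. In controls from week 8 to 20 it was 3, with 9, 6, 5 and 6 under a floor of 16, renormalization, no filter and array weights, and 1 to 64 with 1 array left out. Fetal genes higher at week 20 numbered 2, and 1 with an offset of 50, no filter, array weights or only the compared arrays, and 1 to 2 with 1 array left out. The cause of these shifts was not tested. Dim probes limit Cd24a, and Afp outside the week 8 knockout.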
